A study of Mus musculus with 40 samples.

Results

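The 4 wild-type (WT) libraries of LSK cells from E14.5 fetal liver were compared with the 4 WT libraries of whole E9.5 embryos, 8 of the 40 libraries of the series. The libraries were chosen by the tissue, stage and genotype in their labels and by no measured value. Both groups were Kat6a+/+;Kat6b+/+, the control genotype of a study of mice whose histone acetyltransferases KAT6A and KAT6B carry point mutations. Neither group was treated. Per the study's methods, the point mutant lines were kept on a C57BL/6J background and the null mutant lines on C57BL/6. Embryo library 1 shared a litter with a Kat6a null embryo, and embryo library 3 with a Kat6b null embryo. LSK libraries 1 to 3 shared a litter with a Kat6a point mutant. The embryos thus came from more than 1 mouse line, and the part of line in the tissue difference was not tested. Each embryo library came from 1 whole embryo; the 4 embryos came from 4 litters and, per the study's methods, were male and matched by stage. Each LSK library came from the sorted cells of a fetus, and LSK libraries 1 to 3 came from 1 litter. Tissue and stage changed together, and so did the extraction kit (RNeasy Micro or Mini) and the RNA input per library (30 or 300 ng) as the labels give them, although the study's methods name 1 kit and 1 input for all samples, so the parts of these in a difference cannot be told apart.

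LSK cells are sorted by surface proteins: they lack the markers of mature blood lineages and carry SCA-1 and c-KIT. The gate holds blood stem cells and multipotent progenitors, which expand in the fetal liver before blood formation moves to the bone marrow. A whole embryo at E9.5 holds the beating heart tube, the closing neural tube, the first neurons, migrating neural crest, somites in the making, limb buds, the gut tube and vessels filled with primitive red cells. The comparison sets a narrow sorted population beside nearly all embryonic tissues at once, and asks which genes and gene families mark each. Expression is given as counts per 1000000 counts of a library, scaled by TMM (CPM), in the order of libraries 1 to 4, and log2 fold changes are LSK over embryo with the standard error (SE) of the fit. Levels of different genes are compared only per length, as RPKM, the CPM divided by gene length in kilobases.

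The embryo libraries held 11823454 to 19078839 counts and the LSK libraries 22225822 to 59216547. At the depth of the shallowest library, 17966 ± 78.9 genes had a count in embryos and 16183 ± 178 in LSK cells (mean ± SD, n = 4 each). Expression correlated across genes at 0.9874 to 0.9901 between embryos, at 0.9833 to 0.9908 between LSK libraries and at 0.585 to 0.5983 between tissues, as a description, since genes are not independent replicates. A single library stood apart in each group. LSK library 4, from a litter of its own and the deepest, held less of the stem cell markers and more of the red cell and granule genes than LSK libraries 1 to 3. Embryo library 4, the deepest of its group, held less of the embryonic globins and of the genes of the tail end of the body than the other embryos. LSK library 3 held Xist at 1433 CPM and Y-linked genes at 0.07712 CPM, against 146.9 to 208.2 in the other 7 libraries. Y-linked genes were left out of the fit.

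Of 14462 protein-coding genes that passed the filter on low counts, 11748 (81.2%) differed between LSK cells and embryos by the quasi-likelihood test of edgeR at a false discovery rate (FDR) of 0.05. Of these, 5668 (39.2%) were higher in LSK cells and 6080 (42.0%) in embryos. A test against a 4-fold difference called 3831 genes (26.5%), of which 1152 (7.97%) were LSK markers and 2679 (18.5%) embryo markers. These shares of all tested genes are the background for each list count below. Lists of blood genes and of embryonic tissue genes were picked as such, with earlier results of these data known. Their direction was thus largely set by that choice, so their counts describe the lists and are no test. The largest differences were mostly on the embryo side, with 658 genes at least 8 log2 units higher in embryos and 181 in LSK cells. The median log2 fold change of all tested genes was -0.01, and 8046 genes (55.6%) differed by less than 1 log2 unit. In the 4 LSK libraries 475 tested genes had no count, 16 of them with at least 50 CPM in embryos, whereas 106 had none in the 4 embryo libraries, 5 of them with at least 50 CPM in LSK cells. Such genes passed the filter only through the tissue that counted them, so their direction in the list counts was fixed by the filter.

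In bulk RNA, fewer cells of a type and less RNA per cell cannot be told apart, and each tissue of a whole embryo is diluted by the others. Fold changes against a group with no count are given as lower bounds, from a floor of 3 counts over its 4 libraries. Against 1 to 3 counts, the ratio is given with its exact 95% counting interval, which covers counting error only.

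**Figure D1:**
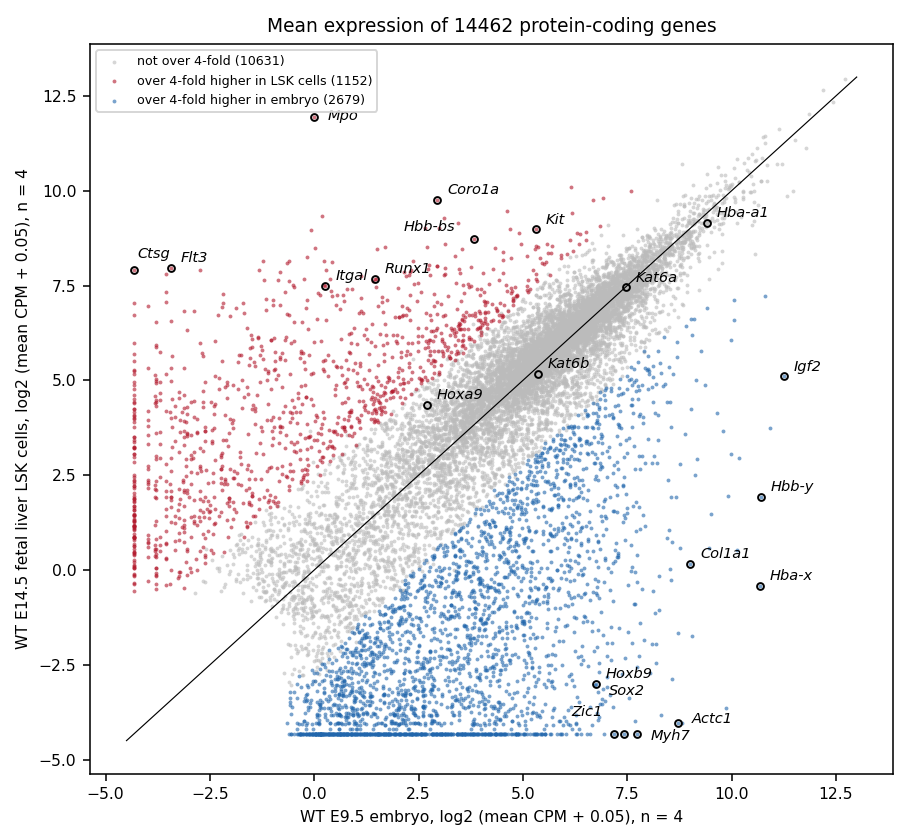
Expression of each of the 14462 tested protein-coding genes as log2 (mean CPM + 0.05) over the 4 WT embryo libraries (x axis) and the 4 WT LSK libraries (y axis), with the diagonal of equal expression. The 2679 embryo markers (blue) outnumber the 1152 LSK markers (red), and genes on the lowest line of either axis had no count in that tissue.

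Defining genes of both groups were checked first. Kit, the receptor for stem cell factor used in the sort, was at 535, 547, 494 and 444 CPM in LSK libraries and at 38.4, 38.6, 39.5 and 42.6 CPM in embryos. Ly6a, which encodes SCA-1, was at 3.89, 3.74, 5.32 and 1.26 CPM in LSK cells and at 0, 0.173, 0.171 and 0 CPM in embryos. The groups did not overlap for either gene, with log2 fold changes of 3.66 for Kit (SE 0.08, FDR 2.41e-11) and 5.43 for Ly6a (SE 0.77, FDR 7.26e-05), but Ly6a RNA was low in cells sorted for its protein. Because the sort used both proteins, these values check the gate and are no finding. The summed level of the LSK markers was 2633 ± 370 CPM in LSK cells and 185 ± 8.53 CPM in embryos. Of the 11 genes of the lineage gate, Cd3e and Cd8b1 of T cells had no count in any library. Cd4 was at 14.3, 10.9, 9.99 and 5.94 CPM in LSK cells and at 0 in each embryo, so this surface gene was counted in every LSK library although the gate removes its protein.

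Markers of other fetal liver cells were present in the LSK libraries. The summed macrophage markers were at 215 ± 24.3 CPM in LSK cells and 21 ± 2.65 CPM in embryos, and all 4 LSK libraries were above all 4 embryos. Hepatoblast markers summed to 226 ± 77.3 CPM in LSK cells and 541 ± 19.1 CPM in embryos, and endothelial markers to 170 ± 33.2 CPM and 385 ± 18.3 CPM, so that both sums were higher in embryos. The hepatoblast sum rested on Dlk1, at 51.4 to 106 CPM in LSK cells and 422 to 515 CPM in embryos. Of its other 9 genes, the hepatocyte genes Alb, Ahsg and Hnf4a were past 4-fold higher in LSK cells and 6 did not pass the test. Erythroblast markers summed to 1698 ± 1179 CPM in LSK cells and 920 ± 155 CPM in embryos, and these did not pass the test (p = 0.2, exact two-sided permutation test over the 70 splits of 8 libraries). For the other sums given here p was 0.0286 in the same exact test, the smallest that 4 against 4 libraries allow, and 0.0325 after Benjamini-Hochberg adjustment over 25 values. The LSK, heart, limb, somite and neural tube lists were picked to mark either tissue. Their separation was set by that choice, so for these lists the test is no finding. Markers of most embryonic tissues were low in LSK cells. Heart markers summed to 0.182 CPM in LSK cells and 1138 ± 228 CPM in embryos, limb markers to 0.282 and 198 CPM, and somite markers to 1.4 and 156 CPM. The neural tube sum was higher, at 37.1 ± 9.24 CPM in LSK cells and 793 ± 15.9 CPM in embryos, and was nearly all Nes, an intermediate filament gene, at 23 to 42.1 CPM in LSK cells. Myh7, Tnnt2, Nkx2-5, Sox1, Sox2, Pax3, Meox1, Pax1 and Tbx5 had no count in any LSK library. The part of these other cells in the values below was not tested.

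**Figure D2:**
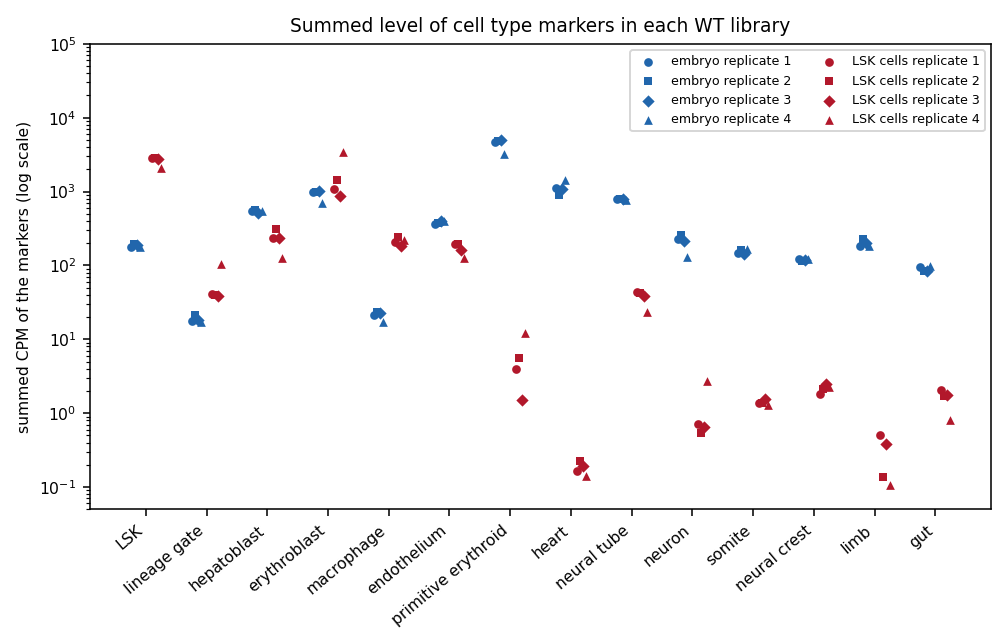
Summed CPM of cell type markers (log axis) in each of the 8 libraries, embryos in blue and LSK cells in red with a symbol per replicate. The heart sums, 0.182 in LSK cells and 1138 ± 228 in embryos, lie far apart, whereas the erythroblast sums, 1698 ± 1179 in LSK cells and 920 ± 155 in embryos, overlap.

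The transcription factors that form and keep blood stem cells were mostly higher in LSK cells: 22 of 30 tested, 17 of them past 4-fold, with a median log2 fold change of 2.93 against -0.01 for all genes. Runx1, which the first stem cells need to emerge from endothelium, was at 212, 219, 210 and 181 CPM in LSK cells and at 2.26, 3.72, 3.24 and 1.57 CPM in embryos. Myb, required for definitive blood, was at 483, 510, 517 and 579 CPM in LSK cells and at 8.34, 5.71, 6.06 and 5.03 CPM in embryos. Spi1, which encodes the myeloid and lymphoid factor PU.1, was at 204, 183, 190 and 161 CPM in LSK cells and at 0.541 to 0.853 CPM in embryos. Every LSK library was far above every embryo for these 3 genes, with log2 fold changes of 6.30 (SE 0.18) for Runx1, 6.4 (SE 0.13) for Myb and 8.16 (SE 0.13) for Spi1. Ikzf1, which encodes the lymphoid factor Ikaros, was higher by 6.04 log2 units (SE 0.12). Gfi1, a repressor that restrains stem cell cycling, was higher by 7.26 (SE 0.13), and Gata2, needed for stem cell survival, by 3.17 (SE 0.07).

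Another 5 of the 30 factors were higher in embryos, among them regulators that stem cells are known to need. Meis1, a homeodomain partner of HOX proteins, was at 89.2, 79.4, 77.9 and 49.2 CPM in LSK cells and at 110, 119, 112 and 106 CPM in embryos. Mecom, which encodes the stem cell factor EVI1, was at 26.8, 29.7, 22.7 and 11.2 CPM in LSK cells and at 48, 49.6, 49.3 and 46.9 CPM in embryos. Every embryo was above every LSK library for both genes, and neither Mecom (-1.11, SE 0.25, FDR 0.00223) nor Meis1 (-0.60, SE 0.16, FDR 0.00506) was past 4-fold. Zbtb16, a zinc finger repressor (-1.52), and Tcf3, an E protein of lymphoid cells (-0.58), were also higher in embryos. Prdm16, Mycn and Cbfb did not pass the test.

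Surface proteins of stem and progenitor cells were higher in LSK cells for 19 of 24 tested genes, 15 of them past 4-fold. Ptprc, which encodes the leukocyte antigen CD45, was at 209, 214, 223 and 160 CPM in LSK cells and at 0.174 to 0.778 CPM in embryos (9.04, SE 0.23, FDR 1.73e-10). Flt3, a receptor of multipotent and lymphoid-primed progenitors, was at 317, 290, 253 and 138 CPM in LSK cells and had 2 counts over all embryos, a ratio of 5858 (1621 to 48372). Cd34, shared by progenitors and endothelium, was at 788, 755, 796 and 397 CPM in LSK cells and at 67.4, 79.9, 75.7 and 65.2 CPM in embryos (3.25, SE 0.22, FDR 6.7e-07). For these 3 genes LSK library 4 was the lowest of its group and still above every embryo, and without it the Cd34 difference was 3.45. Hlf, a factor of primitive stem cells, had the same order, with 150, 157, 156 and 69.4 CPM in LSK cells and 2.61 to 3.84 CPM in embryos (5.43, SE 0.33). Alcam, an adhesion protein, was past 4-fold in embryos (-4.44), and Emcn (-0.95), Tek (-0.90) and Esam (-0.56), which endothelium shares, were also higher there.

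Genes of the myeloid granules were LSK markers. All 19 tested of 21 were past 4-fold, with a median log2 fold change of 11.24, or 9.3 with genes at no count set to their bound. Mpo, the peroxidase of neutrophil granules, was at 3727, 3541, 3495 and 5139 CPM in LSK cells and at 0.869, 1.38, 0.853 and 0.704 CPM in embryos (12.06, SE 0.22, FDR 4.92e-11). At 1561 RPKM in LSK cells, its level per length exceeded that of Actb (1340 RPKM). Ctsg, which encodes cathepsin G, was at 221, 198, 197 and 352 CPM in LSK cells with no count in embryos, at least 4799-fold higher. Elane, which encodes neutrophil elastase, was at 178, 158, 150 and 413 CPM in LSK cells, a ratio of 7279 (2015 to 60107) to its 2 embryo counts. LSK library 4 was the highest of its group for all 3 genes, and without it the log2 fold change was 11.93 for Mpo and 11.84 for Elane. Prtn3, which encodes proteinase 3, was at 599, 536, 568 and 888 CPM in LSK cells and at 0.487 to 1.82 CPM in embryos (9.30, SE 0.30). S100a9, a calcium-binding protein of neutrophils, was at least 2812-fold higher, but lost its call in limma's voomLmFit with litter as a block (adjusted p = 0.0565), and the gene of its partner S100a8 had 1 embryo count, a ratio of 8057 (1446 to 318247).

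The promoters of 3 of these genes, Mpo, Elane and Prtn3, are printed because they were among the highest granule genes and because each window holds the letters GAGGAAGT, the type of site that PU.1 and other ETS factors bind. Each is 250 bases before to 50 bases after the annotated start, 5′ to 3′ on the gene's strand, from RefSeq on GRCm38.p6, and capitals mark the match. Mpo lies at chr11:87793534-87793833 (+), with the match starting at position -224 from the start site, Elane at chr10:79886062-79886361 (+), with the match at -85, and Prtn3 at chr10:79879417-79879716 (+), with the match at -95.
Mpo: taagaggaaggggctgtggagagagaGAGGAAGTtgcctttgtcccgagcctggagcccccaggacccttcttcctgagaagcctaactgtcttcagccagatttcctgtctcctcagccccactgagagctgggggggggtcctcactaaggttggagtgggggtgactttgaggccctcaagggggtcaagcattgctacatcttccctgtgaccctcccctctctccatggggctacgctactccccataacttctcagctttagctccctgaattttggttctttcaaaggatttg
Elane: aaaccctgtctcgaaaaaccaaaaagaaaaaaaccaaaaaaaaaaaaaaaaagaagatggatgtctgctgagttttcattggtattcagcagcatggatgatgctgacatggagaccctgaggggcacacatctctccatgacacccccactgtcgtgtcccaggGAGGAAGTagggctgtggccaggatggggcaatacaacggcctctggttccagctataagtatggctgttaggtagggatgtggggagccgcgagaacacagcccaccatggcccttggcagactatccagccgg
Prtn3: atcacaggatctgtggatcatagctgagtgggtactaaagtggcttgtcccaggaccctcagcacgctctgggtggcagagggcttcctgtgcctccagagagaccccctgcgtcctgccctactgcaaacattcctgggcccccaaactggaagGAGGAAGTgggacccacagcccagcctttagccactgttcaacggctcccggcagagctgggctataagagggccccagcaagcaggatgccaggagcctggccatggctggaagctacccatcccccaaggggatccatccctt
The motif was searched on both strands (GAGGAAGT or ACTTCCTC), and 3.2% of the 32851 promoters in the RefSeq table held it. The match is a description of these windows, which were picked for it, and says nothing of binding. The files were made on another build (mm39), so these positions are not theirs. A comparison of promoter composition between LSK and embryo markers was void, because 79.3% of LSK markers and 72.9% of embryo markers had an entry, under the 80% required.

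Other myeloid genes had the same direction. All 6 genes of the phagocyte NADPH oxidase, which makes the oxidative burst, were past 4-fold higher in LSK cells. Cybb, its catalytic subunit, was at 21, 26, 24.1 and 31.8 CPM in LSK cells and had 3 counts in embryos, a ratio of 484 (165 to 2347). Of 16 myeloid transcription factors 10 were higher in LSK cells, 9 past 4-fold. Cebpa, which starts granulocyte fate, was at 121, 116, 119 and 93.4 CPM in LSK cells and at 2.39 to 3.98 CPM in embryos (5.21, SE 0.14). Irf8, a monocyte and dendritic cell factor, was higher by 4.67 (SE 0.11), and Cebpe, of late granulocytes, had a ratio of 1419 (255 to 56083) to its single embryo count. Among the 5 higher in embryos were Id2 (-3.15), Klf2 (-1.49), Nr4a1 (-1.48) and Egr1 (-1.09), which act in many tissues. Of 13 tested macrophage genes 12 were higher in LSK cells. Adgre1, which encodes the macrophage antigen F4/80, was at 13.8, 19.5, 15.1 and 19.9 CPM in LSK cells and at 0.0869 to 0.341 CPM in embryos, and Marco, a scavenger receptor, was at least 335-fold higher.

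Lymphoid genes moved in both directions. Of 17 tested, 11 were higher in LSK cells, 7 of them past 4-fold, and 4 in embryos. The share past 4-fold in LSK cells was 41.2%, against 7.97% of all tested genes. Il7r, the interleukin 7 receptor of lymphoid progenitors, was at 20.1, 21.6, 21.4 and 22.9 CPM in LSK cells and had 1 embryo count, a ratio of 1165 (209 to 46042). Rag1, the recombinase of antigen receptor genes, was at 49.9, 41.6, 39.3 and 68.2 CPM in LSK cells and had 2 embryo counts, a ratio of 1450 (401 to 11980). Embryos were at or near 0 for both genes, and LSK library 4 was the highest for Rag1. Its partner Rag2 was at least 256-fold higher. The factors of committed B and T cells differed from these: Pax5 did not pass the test (0.07), Ebf1 was at 11.3, 10.1, 8.18 and 17.1 CPM in LSK cells and 14.3 to 23.9 CPM in embryos (-0.68, FDR 0.0204), and Tcf7, which the embryo also uses in Wnt signaling, was past 4-fold in embryos (-2.34, SE 0.10). Bcl11b (-2.84) and Gata3 (-1.13), which neural tissues also use, were higher in embryos.

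Megakaryocyte genes were higher in LSK cells for 13 of 19 tested, 7 past 4-fold, with a median of 1.27. Itga2b, which encodes the platelet integrin CD41, was at 42.8, 48.9, 38.6 and 69.7 CPM in LSK cells and at 6.74 to 10.8 CPM in embryos (2.57, SE 0.21). Vwf, shared with endothelium, was higher in embryos (-0.72, SE 0.21, FDR 0.00947), and the platelet chemokine gene Pf4 did not pass the test (0.75). Of 12 mast cell and basophil genes only 6 passed the filter on low counts, and 5 of these were higher in LSK cells. Among the 6, 2 had no count in embryos and passed the filter only through LSK cells, so the count is no measure of the list. Cpa3, a mast cell protease also found in progenitors, was at 32.9, 32.3, 34.5 and 43.3 CPM in LSK cells with no count in embryos, at least 670-fold higher.

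The embryonic globins and the adult beta globins divided by the wave of blood formation they belong to, whereas the adult alpha globins were abundant in both tissues. The first red cells form in the yolk sac and make embryonic globins, whereas definitive cells of the fetal liver make adult ones. Hbb-y, an embryonic beta-like globin, was at 1.93, 3.79, 0.887 and 8.35 CPM in LSK cells and at 1787, 1854, 1849 and 1147 CPM in embryos. Hba-x, the embryonic alpha-like globin, was at 0.293, 0.821, 0.386 and 1.3 CPM in LSK cells and at 1722, 1743, 1907 and 1234 CPM in embryos. Hbb-bh1, a second embryonic beta-like gene, had the same direction, and the log2 fold changes of Hbb-y, Hba-x and Hbb-bh1 were -8.61, -10.97 and -9.46. Embryo library 4 was the lowest embryo for all 3. The adult beta globin Hbb-bs was at 280, 363, 204 and 865 CPM in LSK cells and at 11.1, 8.74, 10.6 and 25.8 CPM in embryos (4.87, SE 0.57), and Hbb-bt was higher in LSK cells by 4.94 (SE 0.45). The alpha globins Hba-a1, at 356, 467, 270 and 1171 CPM in LSK cells and 723, 749, 765 and 484 CPM in embryos (-0.26, FDR 0.575), and Hba-a2 (-0.13, FDR 0.778) overlapped between the tissues. Without LSK library 4, Hba-a1 (-0.89, FDR 0.0223) and Hba-a2 (-0.74, FDR 0.043) were higher in embryos. The adult alpha pair and the adult beta pair are near-identical copies, so reads could be split between members.

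Regulators of red cell formation were higher in LSK cells. Gata1, the master factor, was at 41.1, 51, 50.1 and 121 CPM in LSK cells and at 7.56, 5.54, 7.59 and 4.55 CPM in embryos (3.41, SE 0.40, FDR 3.04e-05). Klf1, the activator of adult beta globin, was at 56.9, 78.8, 71.7 and 212 CPM in LSK cells and at 6.17 to 10.3 CPM in embryos (3.62, SE 0.47). LSK library 4 was the highest for both, and without it the log2 fold changes were 2.95 for Gata1 and 3.04 for Klf1. Alas2, the first enzyme of heme synthesis in red cells, did not pass the test (-1.03, FDR 0.0552), but was higher in embryos without LSK library 4 (-1.72, FDR 3.94e-04). Car1, a carbonic anhydrase of definitive red cells, had no count in embryos and was at 6.74, 7.07, 5.63 and 18.4 CPM in LSK cells, at least 208-fold higher. Of 25 tested red cell genes, 16 were higher in LSK cells and 2 in embryos.

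Signaling and cytoskeletal proteins, picked as leukocyte genes, were higher in LSK cells for 34 of 34 tested, 33 past 4-fold, median 5.82. Rac2, the Rac-type GTPase of blood cells, was at 555, 513, 514 and 426 CPM in LSK cells and at 1.04, 1.04, 0.853 and 0.649 CPM in embryos (9.17, SE 0.14). Coro1a, an actin regulator, was at 983, 909, 920 and 636 CPM in LSK cells and at 7.65, 8.74, 8.79 and 5.47 CPM in embryos (6.84, SE 0.20). Both separated all libraries. The exchange factors Vav1 (8.06) and Dock2 (8.49), which activate Rac, were also past 4-fold, and Prkcb, a protein kinase C, was the member that was not (1.57).

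Many of these genes have a relative with the same role outside blood, and the choice of relative differed. In 19 such pairs, the log2 ratio of the blood form to the other form per length was compared between the tissues. It was higher in every LSK library than in every embryo for 18 (exact two-sided permutation p = 0.0286 each, 0.0302 adjusted over the pairs). The pairs were picked as a blood form and its relative, with earlier results of these data known. Their direction was thus set by the choice, and the count and p-values only describe the pairs. By mean log2 ratio, the leading member changed between the tissues in 13 pairs. Rac2 over Rac1 was at log2 ratios of 0.29, 0.19, 0.1 and 0.07 in LSK cells and of -8.88, -8.83, -9.2 and -9.54 in embryos. Rac1 itself was at 147 RPKM in LSK cells and 168 RPKM in embryos, and Rac2 at 165 and 0.295 RPKM. Fermt3 over Fermt2, kindlins that activate integrins, was at 8.73, 8.14, 8.47 and 8.73 in LSK cells and at -4.22, -3.81, -4.47 and -4.5 in embryos, and Fermt2 was at 0.383 RPKM in LSK cells and 46.8 RPKM in embryos. Meis1 over Meis2 was at 9.44, 7.75, 7.78 and 7.52 in LSK cells and at -0.09, -0.04, -0.01 and -0.06 in embryos, with Meis2 at 0.0786 RPKM in LSK cells and 33.7 RPKM in embryos. The general form led in both tissues for Itgb2 over Itgb1 and Cdk6 over Cdk4. Arhgdib and Arhgdia were level in LSK cells, at 321 and 319 RPKM, with log2 ratios of 0.11, 0.06, -0.01 and -0.17. Runx1 over Runx2 did not differ past the test (mean difference 0.13, exact permutation p = 0.657).

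**Figure D3:**
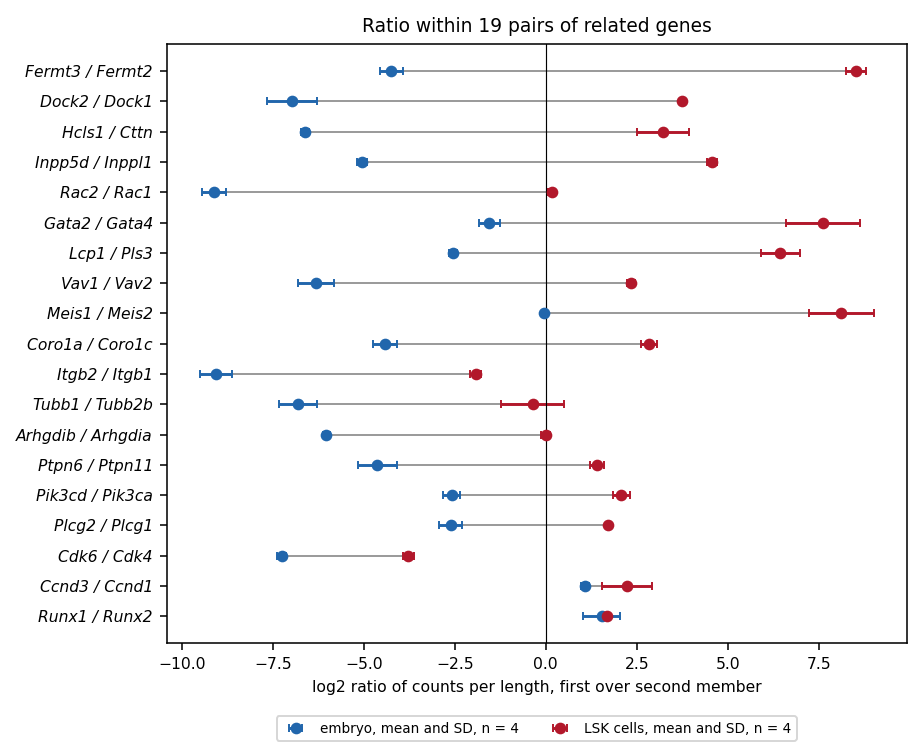
Log2 ratio of counts per length of the blood form to its relative in 19 gene pairs (x axis), as the mean (point) and SD (bar) of 4 LSK (red) and 4 embryo (blue) libraries. The mean difference between the tissues runs from 1.14 log2 units for Ccnd3 over Ccnd1 to 12.77 for Fermt3 over Fermt2 in the 18 pairs that separate, and Runx1 over Runx2 overlaps.

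Receptors and immune genes were also mostly LSK markers. Of 25 cytokine receptors of blood 23 were higher in LSK cells, 20 past 4-fold, and Il6st, the shared gp130 chain, was the gene higher in embryos (-1.14). Csf3r, the G-CSF receptor, was at 152, 139, 148 and 125 CPM in LSK cells and at 0.261 to 0.605 CPM in embryos (8.46, SE 0.14). Csf1r, the macrophage growth factor receptor, was higher by 5.76. Antigen presentation genes were higher for 18 of 20. H2-K1, a classical class I gene, was at 168, 176, 163 and 126 CPM in LSK cells and at 12.5, 13.5, 9.47 and 12.8 CPM in embryos (3.71, SE 0.14). Psmb8, a subunit of the immunoproteasome, was at 133, 126, 120 and 72.6 CPM in LSK cells and had 3 counts in embryos, a ratio of 1820 (623 to 8826). Tap2, of the peptide transporter, was higher by 8.36 (SE 0.40). H2-Q7, a nonclassical class I gene, went the other way (-6.70, SE 0.46), with 5.02 to 6.06 CPM in embryos, as did H2-M5, H2-Q2 and H2-Q9. The class I genes are near-identical copies, and the count of H2-Q7 is uncertain. Of 21 tested class I and II genes, 14 were higher in LSK cells and 6 in embryos. Past 4-fold were 9 (42.9%) and 5 (23.8%) of them, against 7.97% and 18.5% of all tested genes. Of 42 genes of innate sensing and interferon response 37 were higher in LSK cells, 29 past 4-fold, and 0 in embryos. Isg15, induced by interferon, was at 2.72, 6.43, 4.13 and 1.52 CPM in LSK cells and at 0.0865 to 0.348 CPM in embryos, so the direction held at a low level. Tlr3 (-0.26) and Tlr5 (-0.18) did not pass, while Tlr9, a sensor of DNA, had no count in embryos, at least 46.4-fold higher.

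Factors and progenitor genes of the neural tube were embryo markers, with all 34 tested genes higher in embryos, 33 past 4-fold, and a median of -10.94 (-9.36 with genes at no count set to their bound). Sox2, which keeps neural progenitors undifferentiated, was at 177, 167, 161 and 187 CPM in embryos with no count in LSK cells, at least 7506-fold higher. Zic1, a zinc finger factor of the dorsal neural tube and somites, was at 156, 147, 140 and 142 CPM in embryos with no count in LSK cells, at least 6250-fold higher. Pax6, which patterns the eye and the neural tube, was at 60.8, 54.4, 55.4 and 64.2 CPM in embryos and had 3 counts in LSK cells, all in library 4, a ratio of 2551 (872 to 12375). The region factor Otx2, of forebrain and midbrain, had no count in LSK cells and was at least 1907-fold higher in embryos. Gbx2, of the midbrain and hindbrain border, was the gene not past 4-fold (-0.91).

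The promoters of Sox2 and Zic1 are printed because these genes were abundant in every embryo and absent from every LSK library, and as a contrast in base composition to the granule genes. They come from RefSeq on GRCm38.p6, cover 250 bases before to 50 after the start, 5′ to 3′ on the gene's strand, and capitals mark each CG. Sox2 lies at chr3:34649745-34650044 (+) and Zic1 at chr9:91365719-91366018 (-).
Sox2: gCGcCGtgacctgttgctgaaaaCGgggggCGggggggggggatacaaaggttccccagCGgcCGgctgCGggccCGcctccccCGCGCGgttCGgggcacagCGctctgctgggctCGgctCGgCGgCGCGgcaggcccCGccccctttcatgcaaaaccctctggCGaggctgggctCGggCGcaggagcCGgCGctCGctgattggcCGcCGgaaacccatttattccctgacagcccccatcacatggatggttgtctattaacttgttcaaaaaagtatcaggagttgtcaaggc
Zic1: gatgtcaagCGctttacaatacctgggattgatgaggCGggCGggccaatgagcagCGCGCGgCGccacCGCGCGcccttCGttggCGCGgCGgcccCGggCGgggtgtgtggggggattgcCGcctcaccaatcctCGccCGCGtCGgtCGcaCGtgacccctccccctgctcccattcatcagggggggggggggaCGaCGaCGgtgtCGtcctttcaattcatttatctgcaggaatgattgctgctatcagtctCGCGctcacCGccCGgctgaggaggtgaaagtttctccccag
The Sox2 window holds 27 CG and the Zic1 window 31, against 2 for Mpo, 6 for Elane and 4 for Prtn3 and a median of 7 over all promoters of the table. At least 24 CG were found in 20% of all promoters. These 5 windows were chosen after their values were seen, and nothing is drawn from them for the other markers.

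Neurons and neural crest were embryo markers as well. All 27 tested early neuron genes were higher in embryos, 25 past 4-fold. Tubb3, a neuronal tubulin, was at 120, 137, 121 and 70.4 CPM in embryos and at 0.712, 0.502, 0.386 and 2.45 CPM in LSK cells (-6.48, SE 0.46). Embryo library 4 was the lowest embryo and LSK library 4 the highest LSK library, and the groups were still far apart. Neurod1, of newly formed sensory neurons, was at 13.1, 13.9, 14.1 and 9.04 CPM in embryos with no count in LSK cells, at least 519-fold higher. Of 20 neural crest genes 19 were higher in embryos, 18 past 4-fold. Sox10, which marks migrating crest, was at 33, 35.4, 37.8 and 40.8 CPM in embryos and had 2 counts in LSK cells, a ratio of 2401 (664 to 19840). The exception was Mef2c, at 206, 222, 220 and 154 CPM in LSK cells and 31.3 to 40.9 CPM in embryos (2.53, SE 0.13), a factor that heart, crest and blood progenitors share.

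Mesodermal tissues of the embryo were equally distinct. Of 31 tested heart genes 30 were past 4-fold in embryos, and Mef2c was again the exception. Myh7, a myosin heavy chain of the heart, was at 210, 169, 222 and 254 CPM in embryos with no count in LSK cells, at least 9414-fold higher. Myh6, its atrial relative, was at 288, 216, 274 and 395 CPM in embryos and at 0.07 to 0.182 CPM in LSK cells (-11.23, SE 0.31). Actc1, cardiac actin, was at 400, 330, 411 and 534 CPM in embryos and had 1 count in LSK cells, a ratio of 55924 (10036 to 2208972). Among the GATA factors, Gata4 (-5.88), Gata5 (at least 740-fold) and Gata6 (-8.16) of heart and gut were embryo markers, while Gata1 and Gata2 were LSK markers. All 23 tested somite genes of 28 were higher in embryos, 20 past 4-fold. Meox1, which patterns the somite, was at 91, 93.7, 81.4 and 105 CPM in embryos with no count in LSK cells, at least 4045-fold higher. T, which encodes brachyury of the tail bud, was at 4.69, 15.8, 16.6 and 2.65 CPM in embryos with no count in LSK cells, at least 388-fold higher over the 4 embryos. Tbx6, of presomitic mesoderm, was at 1.3, 6.66, 8.28 and 0.595 CPM in embryos and at 0.963, 0.274, 0.463 and 0.841 CPM in LSK cells. Embryo library 4 lay below 2 LSK libraries for Tbx6, whose call (-2.65, FDR 0.010) was lost in limma's voomLmFit with litter as a block (adjusted p = 0.162). Embryo libraries 1 and 4 were below libraries 2 and 3 for T and Tbx6.

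Limb bud and pharyngeal arch genes were past 4-fold in embryos for all 25 tested, with a median of -11.12 (-9.87 with bounds). Shh, the hedgehog ligand of notochord, floor plate and limb bud, was at 29.1, 29.7, 29.5 and 30 CPM in embryos and had 1 count in LSK cells, a ratio of 3820 (685 to 150971). Fgf8, the growth factor of the limb ridge and midbrain border, was at 10.8, 13.8, 13.2 and 13.7 CPM in embryos (-7.74, SE 0.29). Both were even among the 4 embryos. Gut genes were higher in embryos for 16 of 17 tested. Cldn6, a tight junction protein of early epithelia, was at 52.2, 45.1, 43.4 and 61.2 CPM in embryos with no count in LSK cells, at least 2226-fold higher, and Epcam, an epithelial adhesion protein, was an embryo marker (-5.26, SE 0.27). The exception was Hnf4a, a factor of hepatocytes, at 31, 35.9, 33.4 and 13.5 CPM in LSK cells and 1.3, 1.12, 1.02 and 3.14 CPM in embryos (4.00, SE 0.43).

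Secreted proteins of liver and yolk sac showed no common direction: 4 of 20 tested were higher in LSK cells, 4 in embryos and 12 did not pass. Alb, which encodes albumin, was at 41.9, 71.6, 39.1 and 23.6 CPM in LSK cells and at 1.65, 3.2, 2.22 and 0.541 CPM in embryos (4.61, SE 0.49). Afp, of yolk sac and fetal liver, was at 47.5, 77.4, 40.7 and 24.1 CPM in LSK cells and at 19.9, 36.3, 27.9 and 75.5 CPM in embryos (0.22, FDR 0.662), and the groups overlapped. Apoa1, an apolipoprotein of both, was at 1.3, 0.951 and 0.683 CPM in embryo libraries 1 to 3 and at 18.5 CPM in library 4, and without embryo library 4 it was higher in LSK cells (2.54, FDR 3.07e-04). Afp, Apoa1 and Hnf4a were thus highest in embryo library 4 among embryos, whereas Alb was lowest there.

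Vessel genes were higher in embryos for 23 of 30, 18 past 4-fold, with 6 higher in LSK cells. Kdr, the main VEGF receptor, was at 96.2, 101, 106 and 114 CPM in embryos and at 6.74, 9.72, 4.7 and 6.72 CPM in LSK cells (-3.91). Etv2, which starts the endothelial and blood line, was at 1.91, 1.38, 1.37 and 2.71 CPM in embryos and had 2 counts in LSK cells, a ratio of 126 (34 to 1053). The genes higher in LSK cells were shared with blood progenitors: Tal1 was at 143, 166, 161 and 258 CPM in LSK cells and 20.8 to 26.4 CPM in embryos (2.93, SE 0.19), and Icam2 (2.37), Egfl7 (1.86), Eng (1.26), Pecam1 (0.66) and Tie1 (0.48) were also higher there.

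Extracellular matrix was an embryo feature throughout, with 39 of 39 tested genes higher in embryos and 38 past 4-fold, median -5.76. Col1a1, the main fibrillar collagen of connective tissue, was at 713, 453, 408 and 493 CPM in embryos and at 2.01, 0.821, 0.27 and 1.14 CPM in LSK cells (-8.91, SE 0.36). Col2a1, of notochord and future cartilage, was at 536, 526, 528 and 541 CPM in embryos and at 0.126 to 0.347 CPM in LSK cells (-10.92, SE 0.12). Embryos were more even for Col2a1 than for Col1a1, where library 1 was the highest. Col4a1, of basement membranes, kept 16.7 to 44.8 CPM in LSK cells against 554 to 581 CPM in embryos (-4.17, SE 0.26), and Lamc1 was the gene not past 4-fold (-1.95). Cadherins, which join cells of a tissue, were past 4-fold in embryos for 16 of 18 tested. Cdh2, N-cadherin, was at 273, 271, 280 and 283 CPM in embryos and at 0.386 to 0.963 CPM in LSK cells (-8.88, SE 0.16). Cdh17 went the other way, at 12.6, 11.4, 8.48 and 5.32 CPM in LSK cells and 2 counts in embryos, a ratio of 222 (61.3 to 1835). Of 26 integrins, 10 were higher in LSK cells and 12 in embryos, near the shares of all tested genes (39.2% and 42.0%). Past 4-fold were 8 (30.8%) in LSK cells and 6 (23.1%) in embryos, against 7.97% and 18.5% of all tested genes. Itgb2, the leukocyte beta chain, was at 67.6, 69.6, 72.1 and 60.8 CPM in LSK cells and at 0.341 to 0.695 CPM in embryos (7.27, SE 0.15), while Itgb8, which activates TGF-beta in neural tissue, was at 30.9, 29.8, 34.5 and 26.6 CPM in embryos with no count in LSK cells, at least 1286-fold higher.

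The signaling pathways that pattern the body were nearly all on the embryo side. Hedgehog genes were higher in embryos for 15 of 15, 10 past 4-fold. Gli1, a direct target that reports pathway activity, was at 65, 74.8, 79 and 90.8 CPM in embryos and at 0.0912 to 0.543 CPM in LSK cells (-7.54, SE 0.24). Of the Wnt modulators and targets 26 of 29 were higher in embryos and 0 in LSK cells, and the Wnt ligands were higher in embryos for 18 of 18. Axin2, a feedback target of Wnt signaling, was at 119, 108, 117 and 103 CPM in embryos and at 1.23 to 2.19 CPM in LSK cells (-6.03, SE 0.14). Of 27 BMP and TGF-beta genes 24 were higher in embryos. Bmp4, a ventral mesoderm ligand, was at 37.5, 40.2, 37.4 and 32.3 CPM in embryos and at 0.116 to 0.228 CPM in LSK cells (-7.73, SE 0.18). Tgfb1, the ligand of immune and blood cells, was the reverse, at 400, 375, 356 and 306 CPM in LSK cells and 19.3 to 21.4 CPM in embryos (4.16, SE 0.09), while Tgfb2 (-6.61) and Tgfb3 (-4.71) were embryo markers. Feedback targets of FGF signaling were higher in embryos for 12 of 12, 6 past 4-fold.

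Notch and retinoic acid genes had the same direction with more exceptions. Of 21 Notch genes 17 were higher in embryos and 4 in LSK cells. Notch3, of vessel wall and mesenchyme, was at 231, 256, 250 and 241 CPM in embryos and at 6.15 to 7.76 CPM in LSK cells (-5.14, SE 0.08), whereas Notch1, which first stem cells need, was higher in LSK cells (0.56). The glycosyltransferase Mfng, which tunes Notch receptors, was at 145, 122, 122 and 71.2 CPM in LSK cells and 21.7 to 27.9 CPM in embryos (2.22, SE 0.20), above every embryo but not past the 4-fold test. Of 19 retinoic acid genes 16 were higher in embryos. Aldh1a2, which makes retinoic acid in the trunk, was at 62.1, 74.9, 71.7 and 68.5 CPM in embryos and at 0 to 0.21 CPM in LSK cells (-9.09, SE 0.26), and Crabp1, which binds it, was at 475, 396, 420 and 499 CPM in embryos and had 1 count in LSK cells, a ratio of 58462 (10492 to 2309206).

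**Figure D4:**
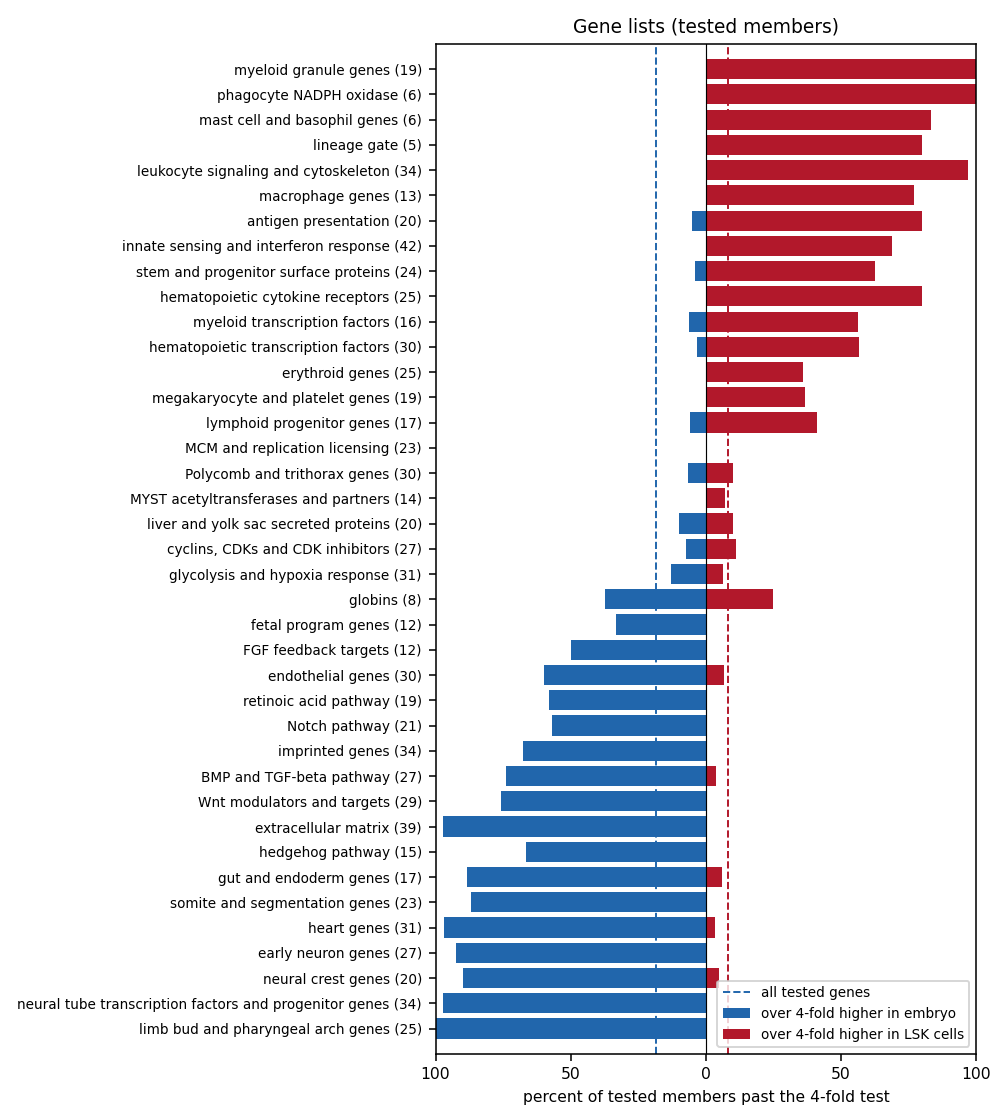
Share of tested members of each gene list past the 4-fold test (x axis, percent), embryo markers to the left and LSK markers to the right, ordered by median log2 fold change, with the number tested in parentheses. Dashed lines give the shares of all tested genes, 18.5% for embryos and 7.97% for LSK cells. Lists of blood genes and of embryonic tissue genes were picked as such, so their side was largely set by that choice.

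Hox genes give position along the body axis, and some of them also act in blood stem cells. Of 39 Hox genes 30 passed the filter; 26 were higher in embryos, 24 of them past 4-fold, 2 in LSK cells and 2 did not pass the test. The clusters differed. In LSK cells the genes of cluster A summed to 82.1 ± 25 CPM and those of cluster B to 8.2 ± 2.3 CPM, whereas cluster C summed to 0.117 CPM and cluster D to 0.0393 CPM. In embryos the sums were 162 ± 29, 369 ± 20, 128 ± 34 and 174 ± 51 CPM. Hoxa9, a driver of stem cell renewal, was at 27.6, 23.2, 19.7 and 10.9 CPM in LSK cells and at 6.43, 8.22, 8.19 and 2.87 CPM in embryos (1.68, SE 0.36, FDR 0.00177). Hoxa7 was at 37, 28, 30.2 and 14.2 CPM in LSK cells and at 17.5, 16.7, 13.7 and 12.1 CPM in embryos (0.87, SE 0.27, FDR 0.013). LSK library 4 was the lowest for both, above every embryo for Hoxa9 and within the embryo range for Hoxa7. Hoxa10 (-1.02, FDR 0.17) and Hoxa6 (-0.59, FDR 0.129) did not pass.

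The neighbors of these genes in other clusters went the other way. Hoxb9 was at 107, 117, 99.8 and 110 CPM in embryos and at 0 to 0.123 CPM in LSK cells (-10.23, SE 0.19), although it belongs to the same paralog group as Hoxa9. Hoxb4, long used to expand stem cells in culture, was at 4.56, 4.97, 3.89 and 2.71 CPM in LSK cells and at 26.1, 30.6, 28.6 and 29 CPM in embryos (-2.85, SE 0.18). Hoxd3 was at 35.9, 51.5, 45.9 and 41.8 CPM in embryos with no count in LSK cells, at least 1870-fold higher. The most posterior genes varied among embryos and most of them did not pass the filter. Hoxc10 was at 12.7, 29.9, 29 and 0.433 CPM, Hoxd11 at 9.13, 24.5, 20.6 and 0.216 CPM and Hoxd13 at 6.43, 11.8, 13.7 and 0.162 CPM in embryo libraries 1 to 4. Embryo library 4 was the lowest for all 3, as it was for T, and library 1 was the next lowest.

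**Figure D5:**
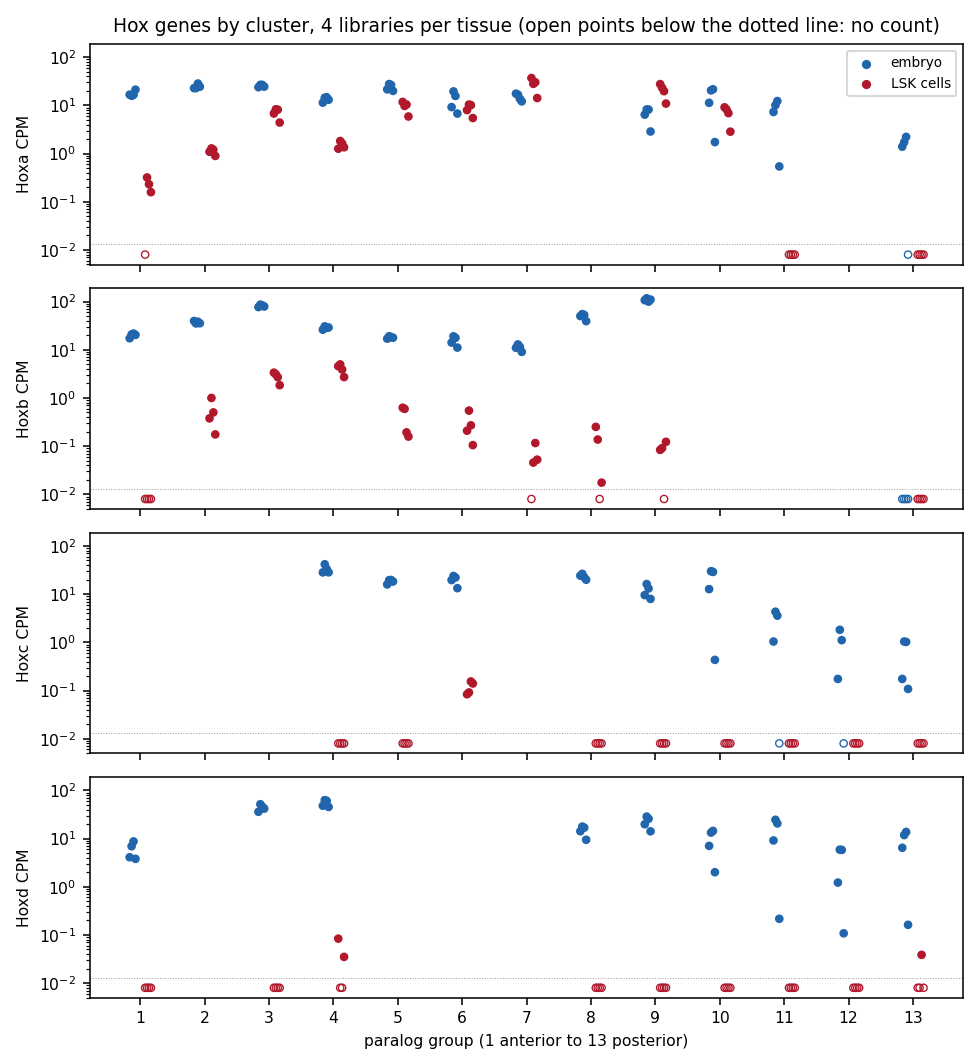
CPM of the 39 Hox genes (log axis) by cluster and paralog group, a point for each LSK (red) and embryo (blue) library, with open points below the dotted line for no count. Cluster A genes were counted in LSK cells up to Hoxa10, while clusters C and D sum to 0.117 and 0.0393 CPM in LSK cells.

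Imprinted genes, many of which promote or restrain fetal growth, were higher in embryos for 31 of 34 tested protein-coding members, 23 past 4-fold, with a median of -3.68. Igf2, the fetal growth factor, was at 2472, 2528, 2417 and 2339 CPM in embryos and at 36.3, 41.6, 34.1 and 25.6 CPM in LSK cells (-6.16, SE 0.15). H19, the noncoding RNA of the same locus, was at 3417, 3335, 3144 and 2892 CPM in embryos and at 172 to 198 CPM in LSK cells (-4.13, SE 0.07). Mest, of mesoderm, was at 1920, 1882, 1913 and 1991 CPM in embryos and at 9.72 to 18.6 CPM in LSK cells (-7.20, SE 0.21). The embryos were within a narrow range for all 3. Cdkn1c, the cell cycle inhibitor p57 that keeps stem cells quiescent, kept 11.5 to 19.7 CPM in LSK cells (-4.16, SE 0.17), and Dlk1 kept 51.4 to 106 CPM (-2.48). Cd81 (0.41) and Trappc9 (0.79) were higher in LSK cells.

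Genes of the fetal program, which distinguish fetal from adult stem cells, were higher in embryos for 10 of 12. Lin28a, which blocks let-7 processing, was at 442, 370, 387 and 549 CPM in embryos and at 5.23, 5.93, 5.94 and 10.6 CPM in LSK cells (-5.92, SE 0.25). Its relative Lin28b, the form of fetal blood progenitors, was at 200, 188, 201 and 228 CPM in embryos and at 85, 88, 109 and 107 CPM in LSK cells (-1.07, SE 0.09). Both were higher in every embryo, by very different amounts. Trim71, an RNA-binding let-7 target of embryonic cells, was an embryo marker (-8.98), while Hmga2 (-0.63) and Igf2bp3 (-1.0) differed less, and Arid3a was higher in LSK cells (0.45).

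The acetyltransferases that the study mutated were alike in both tissues. Kat6a was at 165, 183, 182 and 170 CPM in LSK cells and at 181, 170, 188 and 170 CPM in embryos (-0.02, SE 0.05, FDR 0.729). Kat6b was at 38.5, 37.5, 36.2 and 30.8 CPM in LSK cells and at 42.9, 38.6, 43 and 38.7 CPM in embryos (-0.19, SE 0.08, FDR 0.0578). The libraries overlapped for Kat6a, and for Kat6b every embryo was above every LSK library by a small margin that did not pass the test. Of 14 MYST acetyltransferases and partners 10 did not pass the test, against 2714 of the 14462 tested genes. Jade2, a scaffold of the KAT7 complex, was the exception past 4-fold, at 33.3, 37.4, 36.6 and 27.9 CPM in LSK cells and 3.48 to 4.32 CPM in embryos (3.09, SE 0.13).

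Of 30 Polycomb and trithorax genes, 14 were higher in LSK cells and 13 in embryos, near the shares of all tested genes (39.2% and 42.0%). Alternative subunits of the same complex differed in opposite directions. Pcgf2, of the first Polycomb complex, was at 96, 108, 98.3 and 104 CPM in embryos and at 11.8 to 14.6 CPM in LSK cells (-2.95, SE 0.09), whereas its relative Pcgf5 was at 68.2, 79.6, 87.5 and 75.3 CPM in LSK cells and at 14.3 to 17.4 CPM in embryos (2.29, SE 0.09). Cbx2, another subunit of the first complex, was higher in embryos (-2.18). Phf19, a partner of the second complex, was higher in LSK cells by 3.16 (SE 0.13), and Bmi1, which stem cells need to renew, was higher in embryos (-0.56).

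Cyclins, their kinases and inhibitors were higher in LSK cells for 11 of 27 and in embryos for 9, against 39.2% and 42.0% of all tested genes. Cdk6, the cyclin D partner of blood progenitors, was at 348, 395, 405 and 407 CPM in LSK cells and at 43.2, 47.9, 52.6 and 47.6 CPM in embryos (3.02, SE 0.07). Ccnd2 was at 277, 293, 307 and 217 CPM in LSK cells and at 857 to 892 CPM in embryos (-1.68, SE 0.09), and Ccnd1 was also higher in embryos (-1.31). Myc was at 483, 486, 484 and 456 CPM in LSK cells and at 70.6 to 87.9 CPM in embryos (2.60, SE 0.06), while Mycl was at 121 to 131 CPM in embryos and at 3.15 to 4.6 CPM in LSK cells (-5.12, SE 0.11) and Mycn did not pass the test (-0.36). Genes that license and unwind replication origins differed little. Of 23 tested, 11 were higher in LSK cells, near the share of all tested genes (39.2%), and 0 in embryos, against 42.0%. The other 12 did not pass the test, against 2714 of the 14462 tested genes, and 0 were past 4-fold. Mcm6 had the largest difference of them (0.75, SE 0.04).

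Ribosomal protein and respiratory chain genes had small median differences. Of 79 ribosomal protein genes 51 were higher in LSK cells and 10 in embryos, with a median of 0.34, and of 38 complex I genes 30 were higher in LSK cells, with a median of 0.41. The share of counts in ribosomal protein genes was 2.73 ± 0.146% in LSK cells and 1.94 ± 0.0368% in embryos (n = 4 each). Glycolysis and hypoxia genes were higher in embryos for 22 of 31, against 42.0% of all tested genes. Only 4 (12.9%) were past 4-fold there, below the 18.5% of all tested genes. Slc2a1, the glucose transporter GLUT1, was at 558, 438, 483 and 622 CPM in embryos and at 92.9 to 107 CPM in LSK cells (-2.42, SE 0.11), whereas Hk1, a hexokinase, was at 274, 299, 299 and 427 CPM in LSK cells and at 64.4 to 69 CPM in embryos (2.29, SE 0.13). Per length, Eef1a1, a translation factor, led in both tissues, at 4427 RPKM in LSK cells and 3784 RPKM in embryos. Hba-x (2748 RPKM) and Hbb-y (2681 RPKM) were next in embryos among nuclear genes, and Rplp1, a ribosomal protein (2305 RPKM), in LSK cells.

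Transcription factor families mostly showed the same division. Sox genes were higher in embryos for 15 of 16 tested, Pax genes for 7 of 8 and T-box genes for 9 of 10, against 42.0% of all tested genes. A group of Dlx, Msx, Irx, sine oculis, Lhx and Zic genes was higher there for 32 of 32 and Nkx genes for 11 of 12. Of these 32 and 12 genes, 17 and 8 had no count in LSK cells, so the filter fixed their direction. Some blood families went the other way. RUNX genes were past 4-fold in LSK cells for 3 of 3, STAT genes for 6 of 7, IRF genes for 6 of 9 and C/EBP genes for 4 of 6, against 7.97% of all tested genes. Ikaros genes were split, with 2 of 4 past 4-fold in LSK cells and 1 in embryos. Of 16 KLF genes, 4 were higher in LSK cells and 9 in embryos, 1 and 3 of them past 4-fold. Runx3, which acts in T cells, myeloid cells and sensory neurons, was at 115, 109, 109 and 86.3 CPM in LSK cells and at 0 to 0.346 CPM in embryos (9.57, SE 0.31). Sox4 (-0.04), Pax5 (0.07) and Cebpg (0.00) were family members that did not pass the test, and Nkx2-3, of spleen and gut, was higher in LSK cells (0.74). Among large families of mixed function, 92 of 237 solute carriers were higher in LSK cells and 90 in embryos, and 105 and 128 of 345 zinc finger (Zfp) genes, against 39.2% and 42.0% of all tested genes.

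Genes that encode no protein were fitted with all gene types. Of 996 such genes 94 (9.44%) were past 4-fold in LSK cells and 151 (15.2%) in embryos; those named here were chosen after their values were seen. Slfnlnc was at 273, 257, 276 and 272 CPM in LSK cells and at 0.688, 0.17, 0.251 and 0.583 CPM in embryos (9.24). Mir223hg, host of a myeloid miRNA, was at 20.4, 18.2, 23.6 and 33.5 CPM in LSK cells and had 1 embryo count, a ratio of 1444 (259 to 57046). Both separated all libraries. The embryo side held transcripts beside patterning genes with no count in LSK cells: Six3os1 (at least 1221-fold), Sox2ot (at least 502-fold), Haglr (at least 433-fold) and Fendrr (at least 273-fold). Neat1 was past 4-fold in LSK cells (3.37), and Malat1 was higher there by 1.35 without passing the 4-fold test, with LSK library 3 at 83.3 CPM beside 237 to 253 CPM in the others.

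A few miRNA hairpins were counted. Mir142b, at the locus of a blood miRNA, had 403 counts in LSK cells and 0 in embryos (at least 55.3-fold), whereas Mir483, inside Igf2, had 57 in embryos and 0 in LSK cells (at least 46.1-fold), and Mir219a-2 had 49 and 0 (at least 39.6-fold). Mir219a-1, which gives the same miR-219a-5p as Mir219a-2, had 73 counts in embryos and 14 in LSK cells, all in library 4 (-3.68, SE 0.77). Mature sequences of Mir142b, Mir483 and Mir219a-2 are printed because they name which small RNAs these hairpins give. They are from RefSeq on GRCm38.p6, 5′ to 3′, and capitals mark the seed, bases 2 to 8.
mmu-miR-142b: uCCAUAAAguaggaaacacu
mmu-miR-483-3p: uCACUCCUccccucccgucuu
mmu-miR-483-5p: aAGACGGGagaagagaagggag
mmu-miR-219a-5p: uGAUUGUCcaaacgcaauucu
No 2 of these share a seed. The libraries were made from long RNA without strand, so the counts are of transcripts over the hairpin, not of mature miRNA, and Mir142b cannot be told apart from its antisense partner.

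The same comparison was made within the 3 mutant genotypes that have both tissues, Kat6b G577E/G577E, Kat6a G656E/G656E and the double mutant, each with 4 LSK and 4 embryo libraries that are not among the WT libraries. Of the WT LSK markers past 4-fold, 86.4%, 90.6% and 85.2% were past 4-fold in these genotypes in turn, and of the WT embryo markers 93.8%, 94.1% and 92.9%. The WT contrast itself, refitted with all 32 libraries, kept 92.5% of its LSK markers and 95.7% of its embryo markers. In the fit of all 32 libraries, 7.17%, 7.48% and 7.41% of genes were past 4-fold in LSK cells in these genotypes and 18.8%, 19.2% and 20.2% in embryos, against 7.32% and 18.5% in WT. No gene was past 4-fold in opposite directions. All 382 genes named by rule and past 4-fold in WT had the same direction in each genotype. The difference of the tissue contrast between mutant and WT, which shares the WT libraries, passed the test for 0 genes in Kat6b G577E/G577E (edgeR, 663 at an unadjusted p under 0.05), 10 in Kat6a G656E/G656E and 81 in the double mutant of 15073 tested. Without mutant LSK libraries that had under 14000 genes detected, the counts were 48 for Kat6a G656E/G656E and 6 for the double mutant, which then kept 1 LSK library. These fits took no account of litter, although some WT and Kat6a G656E/G656E libraries of the same tissue share a litter and LSK libraries 2 to 4 of the double mutant come from 1 litter.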

How the data were processed

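Bulk RNA-seq libraries (TruSeq RNA v2, unstranded) of WT E14.5 fetal liver LSK cells and WT E9.5 embryos were used. Per the labels and the study's methods, the authors aligned read pairs to mm39 with Rsubread and counted them per gene with featureCounts on RefSeq annotation, and the deposited values are raw counts. Depth per library is given in the report and sets the precision of low values.

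Of 26411 genes, 26359 matched the RefSeq table by Entrez ID and 52 were left out. The 21030 protein-coding genes, 20951 without Y-linked genes, were filtered (filterByExpr), scaled by TMM and fitted with the quasi-likelihood test of edgeR 4.0.16 on the 8 libraries, in R 4.3.3, with a second test against a 4-fold difference (glmTreat) and a Benjamini-Hochberg FDR of 0.05. CPM are counts per 1000000 counts of a library, scaled by TMM over the tested genes. The study used limma's voomLmFit with litter as a block and surrogate variables, for embryos and LSK cells separately. Here voomLmFit (limma 3.58.1, statmod 1.5.0), DESeq2 1.42.0, other scalings, filters and fold limits, a replicate block, and leaving out each library were alternatives. The tests were tested on simulated data.

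The libraries of a group came from separate animals, but 3 LSK libraries share 1 litter, and p-values measure only the spread between these samples. Near-identical copies (adult alpha and beta globins, class I genes) are uncertain. The members and lists were chosen with earlier results of these data known. Genes were named by rule: the key genes of each list; up to 4 members per direction of each list with the largest log2 fold change past 4-fold; the 15 genes per direction with the largest such change at a mean of at least 50 CPM; the 10 genes per tissue highest per length; and Kat6a and Kat6b. List members outside this rule, the noncoding genes and the gene groups singled out as exceptions were chosen after their values were seen. The rule named 433 genes, not all of which are described. Some members of the lists are not reported here.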

Additional observations from a re-analysis of the deposited data

Results flagged for a closer look

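In 40 of 268 groups of 4 values, a single library lay apart from the others by Dixon's test, where chance gives about 1 in 20. Of 23 such values in LSK cells 17 were of library 4, and of 17 in embryos 11 were of embryo library 4. Their causes were not tested.

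LSK library 4 was lowest for Cd34 (397 CPM, others 755 to 796), Hlf (69.4 CPM, others 150 to 157) and the summed LSK markers (2080 CPM, others 2780 to 2840). It was highest for the granule genes Mpo (5139 CPM, others 3495 to 3727), Elane (413 CPM, others 150 to 178) and Ctsg (352 CPM, others 197 to 221). It was also highest for the red cell genes Gata1 (121 CPM, others 41.1 to 51), Klf1 (212 CPM, others 56.9 to 78.8) and Car1 (18.4 CPM, others 5.63 to 7.07), for Hk1 (427 CPM, others 274 to 299) and for the lineage gate sum (104 CPM, others 38 to 41.7). Lin28a (10.6 CPM), Tubb3 (2.45 CPM), Pax6 (0.0525 CPM) and the neuron sum (2.71 CPM) were highest there too. It was lowest for Myc (456 CPM, others 483 to 486) and had the highest total, 59216547 counts. The other 6 values in LSK cells were near 0: Actc1 (0.0456 CPM), Crabp1 (0.0456 CPM) and Etv2 (0.0912 CPM) in library 2, Shh (0.0419 CPM) in library 1, and Fgf8 (0.116 CPM) and Hoxd13 (0.0386 CPM) in library 3, which rest on a few counts.

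Embryo library 4 was lowest for Hbb-y (1147 CPM, others 1787 to 1854), Hbb-bh1 (845 CPM, others 1175 to 1227), Hba-a1 (484 CPM, others 723 to 765) and Hba-a2 (304 CPM, others 474 to 493). The erythroblast sum (691 CPM), the primitive erythroid sum (3230 CPM) and the share of counts in globin genes (0.393%, others 0.581 to 0.607%) were lowest there. Hbb-bs (25.8 CPM, others 8.74 to 11.1), Hnf4a (3.14 CPM, others 1.02 to 1.3), S100a8 (0.0541 CPM, others 0) and the total (19078839 counts) were highest. Embryo library 1 was highest for Itgb2 (0.695 CPM), Il7r (0.0869 CPM) and Rag1 (0.174 CPM) and lowest in genes expected at the common depth (17849). Embryo library 3 was lowest in ribosomal protein share (1.88%) and highest for Mir223hg (0.0837 CPM, others 0).

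The tissue difference differed from WT in 9 named genes by the interaction test of edgeR, as the log2 fold change in the mutant minus that in WT. In Kat6a G656E/G656E it was Igf2bp1 (-0.55). In the double mutant they were Gjc1 (-5.49), Pcdh18 (-4.57), Slit1 (-3.63), Dlk1 (-1.38), Id2 (0.8), COX1 (1.05), COX2 (1.1) and Myl7 (3.36). These calls come from all 32 libraries with no term for litter. Without the mutant LSK libraries that had under 14000 genes detected, the number of genes called in the double mutant went from 81 to 6 and in Kat6a G656E/G656E from 10 to 48.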

How the results depend on the processing

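Of 433 genes named by rule, 421 were called, and 413 of these were called the same way under every alternative run. The number of LSK markers past the fold limit was 1152 at 4-fold, 2042 with a minimum fold of 2 and 748 with a minimum fold of 8. The share of LSK markers among markers was 30.1% at 4-fold, 36.0% at 2-fold and 26.3% at 8-fold. Leaving out each library in turn gave 11433 to 12161 called genes and 3794 to 3946 past 4-fold. With the replicate number as a block 11513 genes were called, 3794 past 4-fold; the numbers name the samples and do not pair them, since deviations of same-numbered libraries correlated at -0.018 to 0.00838 and 0 of 8 libraries correlated best with its own number. With voomLmFit and litter as a block (correlation 0.424), 823 LSK markers were called, and S100a9 (adjusted p = 0.0565), Cstdc5 (adjusted p = 0.0758) and Tbx6 (adjusted p = 0.162) lost their call; the cause was not tested. Genes that turned direction were near 0 and not called in the fit of 8 libraries. Apoa1 came to -0.03 with DESeq2 size factors, -0.02 with upper-quartile scaling and with all 40 libraries in 1 fit, and -0.12 with the 3 LSK littermates summed. Kat6a came to 0.01 with library totals only and 0 with no filter on low counts. Afp came to -0.13 and Hba-a2 to 0 with voomLmFit. With the littermates summed, Afp came to -0.01, Hba-a1 to 0.18 and Hba-a2 to 0.31. In the fit of 40 libraries COX2 came to 0 and Itgb1 to -0.02. Without 1 library, log2 fold changes ranged from -0.34 to 2.54 for Apoa1, -0.11 to 0.75 for Afp, -0.1 to 0.14 for COX2, -0.74 to 0.11 for Hba-a2, -0.04 to 0.01 for Kat6a and -0.44 to 0.27 for Tubb1. The genotype difference in the tissue contrast went from 10 to 48 genes for Kat6a G656E/G656E and from 81 to 6 for the double mutant without mutant LSK libraries under 14000 genes, a choice made after seeing the data; the double mutant then had 1 LSK library, assumed to vary like the others. At these depths, genes under about 1 CPM in embryos rest on few counts.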
